A study of Mus musculus with 35 samples.

Results

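Postnatal ages were compared in 4 of the 35 RNA-seq libraries of this series. These were the libraries of wild-type (WT) C57Bl/6J mice that carry the label medulla at postnatal day 8 (P8, 2 libraries) and at 5 weeks (2 libraries). They were chosen by their titles and not by any measured value. At P8, genes that mark position along the neuraxis ran against the tissue labels. Age and position therefore cannot be told apart between these libraries. The mice were untreated WT littermates of a line that models spinocerebellar ataxia type 7 (SCA7), and the tissue was flash frozen without sorting of cells, so that each library mixes neurons, glia, vessels and blood. Each library came from a different mouse, and the same series holds 3 libraries labelled WT cervical spinal cord at the same ages (1 at P8 and 2 at 5 weeks), which were used here for a check of the tissue and for comparison. P8 WT_2 and the P8 cord library came from 1 mouse, as did each medulla and cord pair at 5 weeks.

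The 4 libraries held 99353286 and 35563904 counts at P8 and 38162996 and 35923599 counts at 5 weeks, in the order WT_1 and WT_2 that is kept for all values below. The P8 cord library held 38188986 counts and the 5-week cord libraries 133861 and 29571748. Levels are given as counts per 1000000 counts of the library (CPM), which do not correct for gene length, so that they compare libraries for 1 gene and not genes with each other. A difference is given as the log2 fold change of 5 weeks over P8 with its standard error (SE). It was called where the adjusted p of edgeR's quasi-likelihood test, fitted over all genes, was under 0.05. Library numbers in the labels run in blocks by age, so handling and age cannot be told apart. In bulk tissue, fewer cells of a type and less RNA per cell cannot be told apart either.

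The labelled tissue was checked first with genes that mark position along the neuraxis. Posterior HOX genes such as *Hoxb9* are expressed in the spinal cord and anterior ones reach into the hindbrain, whereas *Tph2* and *Slc6a4* mark serotonin neurons and *Dbh* noradrenaline neurons of the brainstem. *Hoxb9* was at 43.4 and 63.2 CPM in the P8 libraries labelled medulla, at 0 and 0 in the 5-week libraries labelled medulla, at 0.0786 in the P8 library labelled cervical cord and at 16.7 in the deep 5-week cord library. *Tph2* ran the other way, at 0.372 and 0.394 CPM in the P8 libraries labelled medulla, 140 and 92 at 5 weeks, 25.1 in the P8 library labelled cord and 0.304 in the deep 5-week cord library. At P8 these genes thus ran against the tissue labels.

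**Figure D1:**
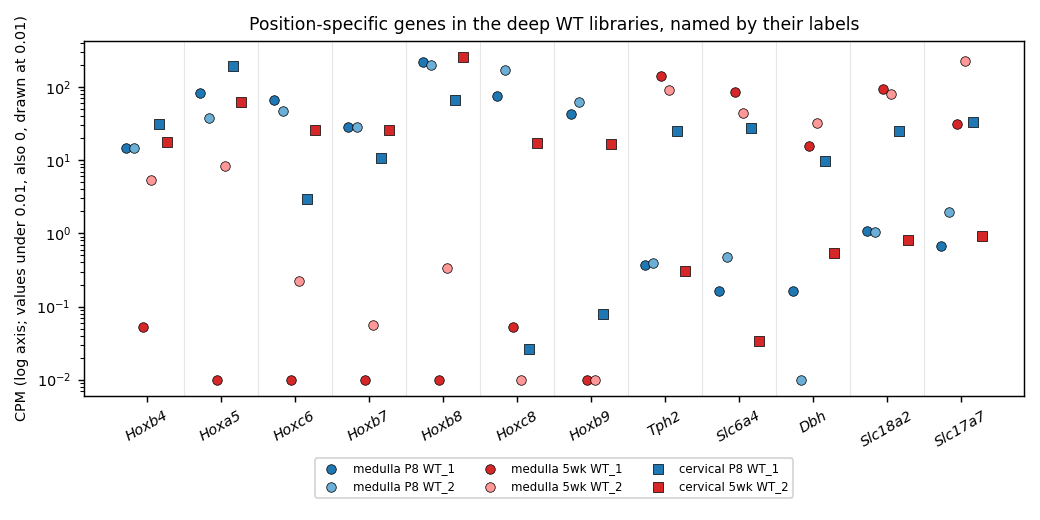
CPM (log axis, values under 0.01 drawn at 0.01) of 7 HOX genes, 4 monoamine genes and *Slc17a7* in the 6 deep WT libraries, circles for the medulla label and squares for the cervical label, blue for P8 and red for 5 weeks. The P8 circles (medulla label) stand with the 5-week cord square at *Hoxb9* (43.4, 63.2 and 16.7) and the P8 cord square stands with the 5-week circles at *Tph2* (25.1, 140 and 92).

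The 5-week medulla libraries differed in position from the 2 deep WT medulla libraries of 9 weeks and from each other. At 9 weeks *Hoxb4* stood at 20.9 to 22.4 CPM, *Hoxa5* at 49.6 to 52.9 and *Hoxb8* at 29.3 to 32.9, where *Hoxb8* was at 0 and 0.334 at 5 weeks. *Tph2* was at 0.529 to 20.6 CPM at 9 weeks, and the dopamine transporter gene *Slc6a3* at 0.0836 to 0.478, against 49.8 and 22.5 at 5 weeks. Both 5-week libraries thus lay below the 9-week ones for the HOX genes and above them for these monoamine genes. Between the 5-week libraries, *Hoxb4* was at 0.0524 and 5.32 CPM and *Hoxa5* at 0 and 8.24, while *En1*, a factor of the midbrain and anterior hindbrain, was at 26.6 and 10.3. *Cbln3* and *Gabra6*, genes of cerebellar granule cells, were at 2.15 and 65.1 and at 0.629 and 25.1 CPM, and the choroid plexus gene *Ttr* was at 0.734 and 776. Among the P8 libraries, WT_2 held more RNA of non-neural cells, with 49.2 and 809 CPM of the collagen gene *Col1a1* and 236 and 523 of the globin gene *Hbb-bs*. The summed level of all 18 fibroblast matrix genes was 1479 and 4514 CPM at P8 and 1618 and 1689 at 5 weeks, and that of the 10 tested Schwann cell genes 218.3 and 719.3 against 131.1 and 124.8. Of the fibroblast matrix genes *Sparc* had the most counts in each of the 4 libraries, 80903 and 35223 at P8 and 43794 and 42398 at 5 weeks. The median log2 fold change of the 18 was -1.8, so their sum does not stand for each gene. *Xist* was at 340 CPM or more and the Y-linked *Ddx3y* at 0 in all 4. These position and cell type genes are given as a check of the libraries, and their part in the changes below was not tested. The summed level of the posterior HOX list was 574.5 and 681.8 CPM at P8 and 0.1048 and 2.561 at 5 weeks, against 134.8 and 500 CPM in the deep cord libraries of P8 and 5 weeks.

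Because of the P8 labels, the groups were not rebuilt, but differences were computed in 2 forms. For some genes only the first form is printed. The first is the comparison of the 4 libraries labelled medulla, in which age and position along the neuraxis cannot be told apart. The second is the mean of the change under the medulla label and the change under the cord label, in 1 fit of all 7 libraries, which has the same value whether or not the P8 tissue labels are exchanged. It does not remove the difference in position of the 5-week libraries, and it treats the 7 libraries of 4 mice as independent. It also includes the shallow 5-week cord library of 133861 counts, which differed in composition as well as depth. Mitochondrially encoded genes summed to 245300 CPM there, against 28870 to 44110 in the other libraries of the fit. The average was added after the HOX genes had been seen.

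Between the libraries labelled medulla, 5200 of 20824 genes (25%) were called, 2488 higher (11.9%) and 2712 lower (13%) at 5 weeks. Averaged over both labels, 4817 of 20918 genes (23%) were called, 2304 higher (11%) and 2513 lower (12%). This second count rests on the only deep 5-week cord library, without which it was 1018, and DESeq2 called 1544. With limma-voom it was 5847, and 6706 with the mouse as a random block (correlation of libraries of 1 mouse -0.179). The median log2 fold change over all genes was -0.0465 under the medulla label and -0.0154 for the average. The counts of gene lists below are to be read beside the shares of all genes called in each form. Of the 4 libraries, the count of calls was most affected by P8 WT_2, without which 1974 genes were called. Of the 169 called genes chosen for naming, 102 were called in each of the 4 fits without 1 library.

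Maturation of the hindbrain after birth combines several programmes that are well known from other work. Progenitors leave the cell cycle, newly born neurons stop extending axons and exchange fetal for adult receptor and channel subunits, oligodendrocyte precursors become myelinating cells, astrocytes take up their transport functions, and the matrix around neurons changes its composition. Genes of cell division share promoter elements, the cell cycle genes homology region (CHR) and the CCAAT box. Through these, repressor and activator complexes tie their expression to cell division.

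Proliferation genes were the group with the most uniform change, and 31 of 32 genes of the list were lower at 5 weeks. Their promoters are shown first because these genes fell together. The RefSeq promoter table (GRCm38.p6) matched 24 of the 31. In the 250 bases before the start site of that table, the letters TTTGAA of the CHR were searched on both strands. The letters of the CCAAT box were searched separately in the same way. The box was found in 21 of 24 windows (87.5%) and the CHR letters in 9 (37.5%), and all 9 held both, against 39%, 14.1% and 5.16% of the 14681 tested genes in the table. Over all 32851 windows, counted by window and not by gene, the shares were 33.8%, 16% and 5.55%. A match is a description of letters, and no match says only that these letters are not in this window. The 4 genes with the largest fall among the 9 are printed 5′ to 3′ on the strand of the gene, ending at the base before the start, with the matches of both motifs in capitals, read as their reverse complement where the match is on the other strand. They lie at chr11:99024190-99024439 (minus strand) for *Top2a*, chr7:135716380-135716629 (minus strand) for *Mki67*, chr2:164769679-164769928 (plus strand) for *Ube2c* and chr7:80294226-80294475 (plus strand) for *Prc1*.
Top2a: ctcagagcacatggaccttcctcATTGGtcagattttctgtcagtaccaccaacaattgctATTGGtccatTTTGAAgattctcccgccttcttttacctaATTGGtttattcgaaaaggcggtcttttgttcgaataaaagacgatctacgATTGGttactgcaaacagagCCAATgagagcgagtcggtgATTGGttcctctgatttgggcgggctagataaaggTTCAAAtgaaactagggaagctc
Mki67: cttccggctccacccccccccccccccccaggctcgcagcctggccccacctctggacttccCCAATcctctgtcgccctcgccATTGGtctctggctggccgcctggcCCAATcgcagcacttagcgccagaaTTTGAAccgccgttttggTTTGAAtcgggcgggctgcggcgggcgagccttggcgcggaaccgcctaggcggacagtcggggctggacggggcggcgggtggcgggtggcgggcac
Ube2c: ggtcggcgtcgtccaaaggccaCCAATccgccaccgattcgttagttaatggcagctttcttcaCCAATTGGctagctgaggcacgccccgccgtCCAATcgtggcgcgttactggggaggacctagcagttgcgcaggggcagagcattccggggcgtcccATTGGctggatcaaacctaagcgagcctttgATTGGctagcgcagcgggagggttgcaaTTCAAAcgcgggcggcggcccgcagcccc
Prc1: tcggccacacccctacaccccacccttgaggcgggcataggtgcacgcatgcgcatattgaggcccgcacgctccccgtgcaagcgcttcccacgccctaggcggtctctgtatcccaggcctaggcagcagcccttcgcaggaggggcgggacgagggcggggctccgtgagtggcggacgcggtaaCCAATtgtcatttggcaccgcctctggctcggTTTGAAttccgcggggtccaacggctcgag

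The *Top2a* window held 2 copies of the CHR letters and 6 of the CCAAT box in either direction, that of *Mki67* held 2 and 3, that of *Ube2c* held 1 and 6, of which 1 pair shares bases, and that of *Prc1* held 1 of each. In *Top2a*, *Ube2c* and *Prc1* the CHR letters nearest the start site lay 23, 29 and 30 bases before it, and in *Mki67* 98 bases before it. The annotated gene reaches to chr11:99024199 for *Top2a* and chr7:135716450 for *Mki67*, inside the printed windows. The distances of these genes are therefore to the start site of the promoter table and not to the outer end of the annotated gene.

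*Top2a*, the topoisomerase of dividing cells, was at 64.5 and 74.8 CPM at P8 and at 0.576 and 0.418 at 5 weeks. Both P8 levels were far above both 5-week levels, and the fall was 7.03 ± 0.19 (SE) on the log2 scale (131-fold, adjusted p = 0.00374). In the cord libraries *Top2a* was at 36.9 CPM at P8 and 1.62 at 5 weeks, and the averaged change was -5.68 ± 0.2 (adjusted p = 0.00023). The proliferation marker *Mki67* went from 54.5 and 70.5 CPM to 0.498 and 1.22, with 30.5 and 2.1 in the cord libraries. *Aurkb*, the kinase of chromosome segregation, went from 7.4 and 7.99 CPM to 0.105 and 0.0557 (-6.44 ± 0.36). For each of these genes the P8 libraries of both labels lay above every deep 5-week library.

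Over the 32 genes the median log2 fold change was -3.62 under the medulla label and -3.22 averaged, with 29 lower and none higher in the average. The gene not called under the medulla label was *E2f1*, an activator of S phase genes, at 9.11 and 8.74 CPM at P8 and 6.05 and 7.74 at 5 weeks (adjusted p = 0.335). Leaving out any 1 of the 4 libraries kept 29 or 30 lower, while the average without the deep 5-week cord library kept 18. The summed level of the list was 725.3 and 835.3 CPM at P8 and 103.1 and 102.1 at 5 weeks. In the deep 9-week WT medulla libraries *Top2a* was at 0.239 to 0.975 CPM and *Mki67* at 0.657 to 1.09, ranges that overlap those of the 5-week libraries.

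**Figure D2:**
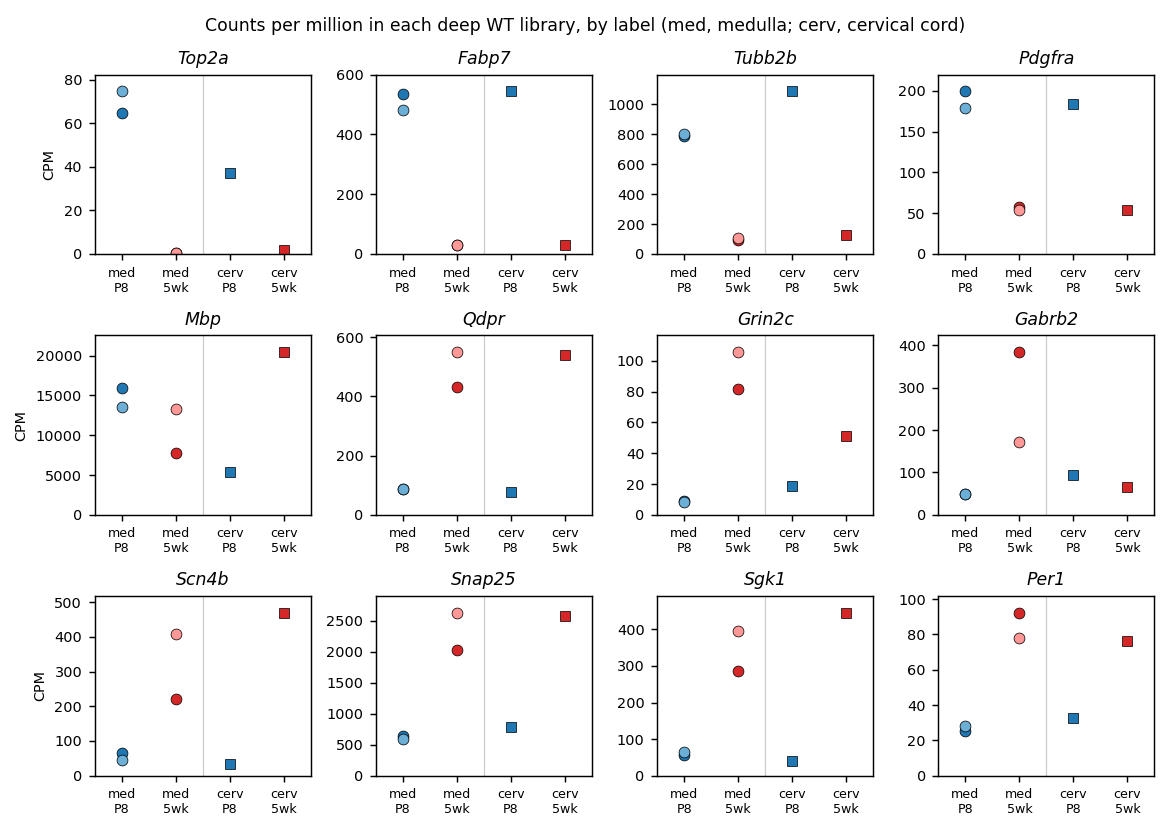
CPM on linear axes from 0 for 12 genes in the 6 deep WT libraries, by tissue label and age, 1 point per library. *Top2a*, *Fabp7*, *Tubb2b* and *Pdgfra* were lower in all 3 libraries of 5 weeks than in all 3 of P8, *Qdpr*, *Grin2c*, *Scn4b*, *Snap25*, *Sgk1* and *Per1* were higher, and the order of the ages for *Mbp* and *Gabrb2* was opposite under the 2 labels.

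Genes of radial glia, the precursors that line the ventricle and guide migrating cells, were mostly lower at 5 weeks, with 9 of 16 lower and 1 higher under the medulla label and 8 lower in the average, or 5 without the deep 5-week cord library. *Fabp7*, a fatty acid carrier of radial glia and immature astrocytes, was at 534 and 482 CPM at P8 and at 30.4 and 28.8 at 5 weeks, and at 546 and 28.6 in the cord libraries. The P8 libraries of both labels stood together and far above the 5-week libraries, with a log2 fold change of -4.01 ± 0.14 (adjusted p = 0.00374) and an average of -4.1 ± 0.25. *Vim* and *Nes*, intermediate filaments of progenitors, fell by 2.16 ± 0.39 and 1.57 ± 0.23 on the log2 scale, and *Sox2*, a progenitor factor, by 1.31 ± 0.14. The gene called higher was *Sox1* at 0.94 ± 0.22, which was not called without 5-week WT_1 or without either P8 library, and its averaged change was 0.32 ± 0.22 (adjusted p = 0.325).

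Among 30 genes of immature neurons and axon growth, 14 were lower and 2 higher under the medulla label, and 22 were lower and 1 higher in the average. Without the deep 5-week cord library the averaged count was 12 lower and 2 higher. *Tubb2b*, the beta tubulin of migrating and growing neurons, was at 787 and 804 CPM at P8, 94.5 and 107 at 5 weeks, and 1090 and 125 in the cord libraries. Its levels were again apart by age and not by label, with a log2 fold change of -2.89 ± 0.13 and an average of -2.98 ± 0.18. *Marcksl1*, a regulator of the actin cortex, fell by 2.78 ± 0.12, and *Dcx*, the microtubule protein of migrating neurons, by 1.92 ± 0.16. *Gap43*, the growth cone protein, was at 281 and 291 CPM at P8 and 273 and 170 at 5 weeks (adjusted p = 0.421), and at 541 and 104 in the cord libraries (average -1.29 ± 0.21, adjusted p = 0.00747).

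The list's strongest rise was *Cntn2*, an adhesion molecule of early axons that in the adult belongs to the juxtaparanode beside the node of Ranvier. It was at 95.5 and 81.5 CPM at P8, 406 and 451 at 5 weeks and 141 and 514 in the cord libraries, with both 5-week values above both P8 values (2.36 ± 0.15, average 2.11 ± 0.2). *Stmn1* was called higher under the medulla label (0.71 ± 0.13), but not without either 5-week library or without P8 WT_1, with an average of 0.6 ± 0.29 (adjusted p = 0.177).

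Oligodendrocyte precursors divide and spread through the tissue before birth and after it, and their descendants wrap axons in myelin. Of 20 genes of precursors and newly formed oligodendrocytes, 15 were lower and none higher under the medulla label, and 13 were lower and 1 higher in the average. Without P8 WT_1 the first count was 9 lower, and without the deep 5-week cord library the second was 5 lower and 1 higher. *Pdgfra*, the growth factor receptor of precursors, was at 200 and 179 CPM at P8, 57.8 and 53.6 at 5 weeks, and 184 and 53.4 in the cord libraries (-1.68 ± 0.12). *Gpr17*, a receptor of the stage between precursor and myelinating cell, was at 574 and 424 CPM at P8 and 102 and 93.6 at 5 weeks (-2.27 ± 0.2). Both were lower in every 5-week library than in every P8 library, cord included.

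Myelin genes did not move as 1 group under the medulla label, where 8 of 28 were higher and 2 lower, with a median of 0.59. In all 35.7% were called, against 25% of all genes, and the share of lower genes was under the 13% of all genes. Without P8 WT_2 the count was 3 higher and 1 lower, and without 5-week WT_2 it was 5 higher and 1 lower. In the average 19 were higher and none lower, with a median of 1.79, and the median under the cord label was 2.94. Without the deep 5-week cord library the average called 12 higher. *Mbp*, the myelin basic protein gene, was at 15900 and 13600 CPM in the P8 libraries labelled medulla and 7770 and 13300 at 5 weeks, but at 5410 and 20500 in the cord libraries of P8 and 5 weeks. Its change was -0.4 ± 0.38 under the medulla label (adjusted p = 0.481) and 1.83 ± 0.69 averaged (adjusted p = 0.0997), so neither form was called. In the shallow 5-week cord library, which enters the average, it was at 94800 CPM.

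Several genes of mature oligodendrocytes rose under both labels. *Qdpr*, the dihydropteridine reductase that myelinating cells express strongly, was at 88.5 and 85.9 CPM at P8, 433 and 551 at 5 weeks, and 77.9 and 540 in the cord libraries (2.58 ± 0.17, 6-fold). *Opalin*, a membrane protein of mature oligodendrocytes, was at 11.5 and 8.18 CPM at P8 and 54.1 and 51.4 at 5 weeks (2.5 ± 0.2, average 3.37 ± 0.24). *Klk6*, an oligodendrocyte protease, was at 12.2 and 9.87 CPM and at 29.6 and 90 (2.52 ± 0.57), where the 2 libraries of 5 weeks lay apart but both exceeded P8. *Mobp* was at 2830 and 2410 CPM at P8 and 3040 and 4780 at 5 weeks, not called under the medulla label (adjusted p = 0.164) and called in the average (2.02 ± 0.43). The 2 called lower under the medulla label, *Ugt8a* (-1.69 ± 0.25), the enzyme of galactocerebroside synthesis, and *Cnp* (-0.89 ± 0.22), had averages of -0.34 ± 0.21 and 0.14 ± 0.23 that were not called.

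Cholesterol is made in the brain and is in demand while myelin is laid down. Of 22 genes of its synthesis and uptake, 15 were lower and none higher at 5 weeks under the medulla label (median -0.99), and 10 were lower in the average (median -0.55). *Lss*, lanosterol synthase, was at 227 and 203 CPM at P8, then 51.6 and 61.7 at 5 weeks, and at 121 and 84.2 in the cord libraries. It was lower in every 5-week library than in every P8 library, with a change of -1.83 ± 0.15 under the medulla label and an average of -1.11 ± 0.14, both called. The averaged count depended on single libraries, with 3 lower without 5-week WT_1, 6 without 5-week WT_2, 5 without P8 WT_1 and 1 without the deep 5-week cord library.

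**Figure D3:**
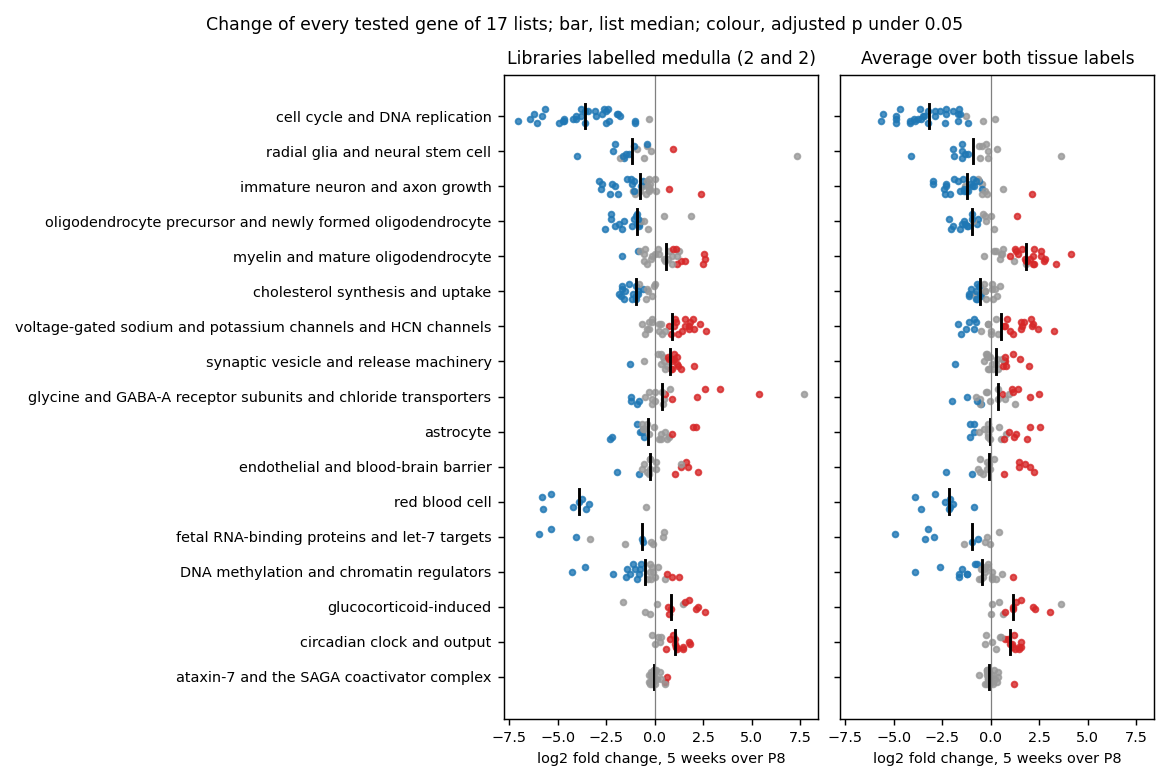
Log2 fold change of 5 weeks over P8 for each tested gene of 17 lists, under the medulla label (left) and averaged over both tissue labels (right), with the list median as a black bar and called genes in red (higher) or blue (lower). The median of the proliferation genes lay below 0 in both panels (-3.62 and -3.22), and that of the myelin genes lay further to the right in the average (0.59 and 1.79).

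Receptor subunits for the fast transmitters of the medulla changed one by one. NMDA receptors combine the obligatory subunit *Grin1* with variable subunits. *Grin2c* was at 8.89 and 8.13 CPM at P8, 81.8 and 106 at 5 weeks, and 18.8 and 50.9 in the cord libraries. The rise was 3.55 ± 0.18 (11.7-fold, adjusted p = 0.00374) under the medulla label and 2.56 ± 0.18 averaged, and every 5-week library exceeded every P8 library. *Grin3a*, a subunit of juvenile receptors, fell by 0.6 ± 0.13 (average -0.87 ± 0.14). *Grin1*, *Grin2a* and *Grin2b* were not called in either form, and *Grin2d* was not called under the medulla label (-0.33 ± 0.21) but was in the average (-0.83 ± 0.21, adjusted p = 0.0327). Of the AMPA receptor genes, *Gria3* was called higher (0.48 ± 0.12, adjusted p = 0.0496, average 0.51 ± 0.16 with adjusted p = 0.0557), and *Gria1*, *Gria2* and *Gria4* were not.

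Glycine receptors carry much of the inhibition of medulla and cord and exchange the fetal alpha 2 subunit for alpha 1 after birth. *Glra2*, alpha 2, was at 62.9 and 61.9 CPM at P8, 31.3 and 18.8 at 5 weeks, and 78.5 and 10.2 in the cord libraries (-1.23 ± 0.25, average -2.02 ± 0.24). *Glra1*, alpha 1, was at 61.2 and 43.9 CPM at P8, 35.1 and 96 at 5 weeks, and 38.9 and 148 in the cord libraries. The groups overlapped under the medulla label, and neither its change there (0.4 ± 0.5) nor the average (1.24 ± 0.38, adjusted p = 0.0572) was called. *Glrb*, the beta subunit that anchors the receptor, rose by 0.53 ± 0.14 (average 0.58 ± 0.16).

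GABA-A receptor subunits moved in both directions. *Gabrb2*, a beta subunit of synaptic receptors, was at 50.1 and 48.6 CPM at P8, 385 and 171 at 5 weeks, and 93 and 65.2 in the cord libraries. The P8 and 5-week levels were far apart under the medulla label (2.58 ± 0.41) but the order was reversed in the cord pair, with an average of 1.08 ± 0.31 that was called. *Gabrd*, the extrasynaptic delta subunit, was at 0.262 and 0.337 CPM, then 13.4 and 9.49, and its change differed between the labels (adjusted p of the difference = 0.0241). *Gabra5* fell by 1.21 ± 0.11, *Gabra2* by 0.92 ± 0.09 and *Gabrg1* by 0.8 ± 0.09 on the log2 scale, each also lower in the average (-1.23 ± 0.25, -0.49 ± 0.14 and -0.74 ± 0.12). The chloride transporters that set the sign of the GABA response were not called under the medulla label, with *Slc12a5* at 0.78 ± 0.22 (adjusted p = 0.0665) and *Slc12a2* at 0.37 ± 0.18 (adjusted p = 0.198, average 1.12 ± 0.18 with adjusted p = 0.00686).

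**Figure D4:**
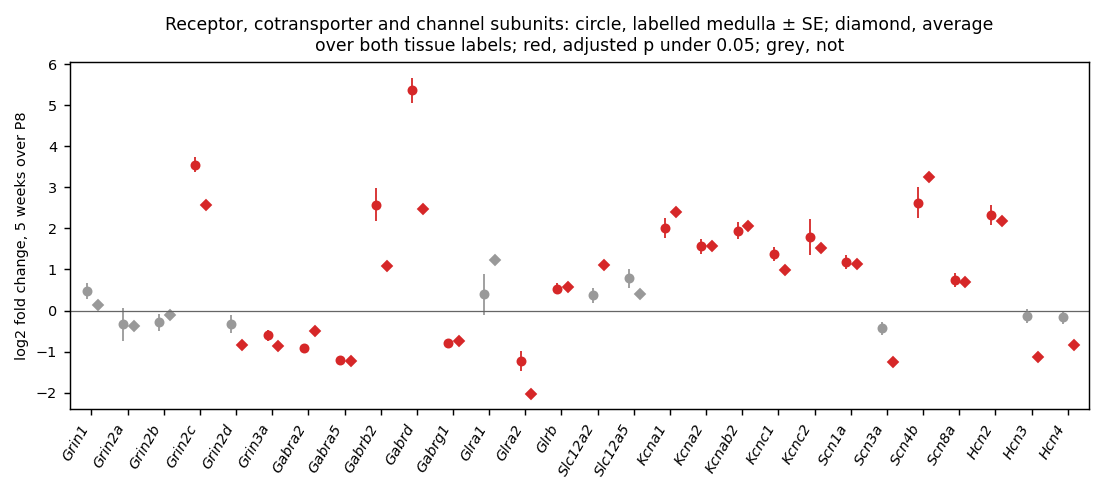
Log2 fold change of 5 weeks over P8 for subunits of NMDA, GABA-A and glycine receptors, chloride transporters and ion channels, circles for the libraries labelled medulla with SE bars, diamonds for the average over both tissue labels, red where called. *Grin2c* (3.55 and 2.56) and *Scn4b* (2.62 and 3.25) were red above 0 and *Glra2* (-1.23 and -2.02) and *Gabra5* (-1.21 and -1.23) red below 0 in both forms.

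Voltage-gated channels set how fast and how regularly neurons fire. Of 28 sodium, potassium and HCN channel genes, 16 were higher and none lower under the medulla label (median 0.90), and 14 were higher and 7 lower in the average (median 0.51). Without P8 WT_2 the first count was 10 higher, and without 5-week WT_1 it was 13 higher and 2 lower. The averaged count was 6 higher and none lower without the deep 5-week cord library. *Scn4b*, the auxiliary subunit of resurgent sodium current, was at 64 and 44.1 CPM at P8, 220 and 409 at 5 weeks, and 32.5 and 470 in the cord libraries (2.62 ± 0.38). *Scn1a* and *Scn8a*, pore subunits of mature axons, rose by 1.17 ± 0.17 and 0.75 ± 0.17. *Scn3a*, the pore subunit of fetal neurons, was at 64.4 and 67.8 CPM at P8 and 52.6 and 39.6 at 5 weeks, not called under the medulla label (adjusted p = 0.108) and lower in the average (-1.26 ± 0.15).

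*Kcna1* and *Kcna2*, the potassium channels beside the node of Ranvier, rose by 2 ± 0.24 and 1.56 ± 0.18, and their auxiliary subunits *Kcnab1* and *Kcnab2* by 1.11 ± 0.15 and 1.94 ± 0.21. *Kcnc1* and *Kcnc2*, channels of fast-spiking neurons, rose by 1.38 ± 0.17 and 1.78 ± 0.44. *Hcn2*, a pacemaker channel, was at 139 and 105 CPM at P8, 481 and 666 at 5 weeks, and 158 and 621 in the cord libraries (2.32 ± 0.25). All 7 of these potassium and pacemaker genes were also higher in the average, whereas *Hcn3* and *Hcn4* were not called under the medulla label and were lower in the average (-1.14 ± 0.22 and -0.85 ± 0.17).

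Of 22 genes of synaptic vesicles and release, 13 were higher and 1 lower under the medulla label and 8 higher and 1 lower in the average. The first count was 3 higher without 5-week WT_1 or without P8 WT_2 and 5 without 5-week WT_2, and the second was 2 without 5-week WT_2 or without the deep 5-week cord library. *Snap25*, the SNARE protein of vesicle fusion, was at 645 and 591 CPM at P8, 2020 and 2630 at 5 weeks, and 787 and 2580 in the cord libraries (2 ± 0.21, average 1.94 ± 0.22). Its plasma membrane partner *Stx1a* was at 59.7 and 67 CPM, then 30.5 and 18.5, and at 103 and 17.8 in the cord libraries (-1.28 ± 0.25, average -1.83 ± 0.21). *Syt1*, the calcium sensor of release, rose under the medulla label (1.34 ± 0.27) with an average of -0.14 ± 0.25 (adjusted p = 0.723).

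The neurofilament genes *Nefl*, *Nefm* and *Nefh* were not called in either form, and *Nefl* was at 2000 and 1560 CPM at P8 and 711 and 1260 at 5 weeks. Of 9 genes of neuronal calcium-binding proteins 2 were called, a share (22.2%) near that of all genes, with *Calb2* at 1.47 ± 0.16 (average 1.24 ± 0.16) and *Calb1* at 1.36 ± 0.27 (average 0.53 ± 0.25, adjusted p = 0.172). Of 20 neuropeptide genes, 3 were lower and none higher, a share of lower genes near the 13% of all genes. None was lower without P8 WT_2, 1 without P8 WT_1, 5 without 5-week WT_1, and 1 in the average, and 1 was higher without either 5-week library. *Pdyn*, the dynorphin precursor, was at 22.4 and 23.1 CPM at P8 and 7.94 and 3.9 at 5 weeks (-1.86 ± 0.35, average -1.39 ± 0.27). Of the monoamine and other transmitter genes, 13 of 19 were higher under the medulla label and 4 in the average, of which DESeq2 called none, as did the average without the deep 5-week cord library. The 12 genes with the largest rise held 7 of these, among them *Slc18a2*, the vesicular monoamine transporter, at 1.07 and 1.04 CPM at P8, 95.1 and 81.6 at 5 weeks, 25 in the P8 library labelled cord and 0.812 in the 5-week cord library.

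The extracellular matrix of the brain passes from a juvenile form rich in neurocan and tenascin-C to perineuronal nets around mature neurons. Of 14 matrix genes, 9 were lower and 2 higher under the medulla label, and 5 lower and 2 higher in the average. Without 5-week WT_1 the first count was 4 lower and none higher, without 5-week WT_2 it was 7 lower and none higher, and without P8 WT_2 8 lower and 1 higher. The average without the deep 5-week cord library gave 3 lower and none higher. *Tnc*, tenascin-C, was at 94.6 and 134 CPM at P8, 6.97 and 5.98 at 5 weeks, and 68.3 and 6.05 in the cord libraries (-4.05 ± 0.21). *Ncan*, neurocan, was at 1060 and 835 CPM, then 159 and 105, and at 1250 and 112 in the cord libraries (-2.76 ± 0.27). The 2 that rose were *Hapln4*, a link protein of nets, from 82.9 and 51.6 CPM to 202 and 208 (1.69 ± 0.26), and *Acan*, aggrecan, from 15.7 and 12.1 to 24.5 and 26.8 (0.97 ± 0.18). All 4 were called in the same direction in the average.

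Of 22 astrocyte genes, 3 were higher and 7 lower under the medulla label and 7 higher and 4 lower in the average. Under the medulla label 45.5% were called, against 25% of all genes, and the share of higher genes was near the 11.9% of all genes. Leaving out any 1 of the 4 libraries gave 2 or 3 lower and 2 or 3 higher under the medulla label, and the average without the deep 5-week cord library or without 5-week WT_2 gave 4 higher, with none and 2 lower. The average without P8 WT_1 gave 2 lower. *Glul*, glutamine synthetase, was at 637 and 566 CPM at P8, 2120 and 2270 at 5 weeks, and 576 and 2040 in the cord libraries (1.95 ± 0.17, average 2.01 ± 0.2). *Gjb6*, a gap junction gene of mature astrocytes, was at 21.6 and 22.4 CPM, then 87.3 and 95.9, and at 13 and 95.4 in the cord libraries (2.14 ± 0.1). Both were higher in every 5-week library than in every P8 library. *Gfap*, the astrocyte filament gene, was at 2260 and 2360 CPM at P8 and 217 and 645 at 5 weeks under the medulla label (-2.33 ± 0.55), and at 639 and 2110 in the cord libraries (average -0.06 ± 0.39, adjusted p = 0.942). Among the deep WT libraries of P8 and 5 weeks, the 3 with the highest *Gfap* (2110 to 2360 CPM) also had the highest *Hoxb9*. The shallow 5-week cord library was at 2140 CPM of *Gfap*. The part of position along the neuraxis in the *Gfap* change was not tested. *Aqp4*, the water channel, was lower in both forms (-2.19 ± 0.21, average -1.08 ± 0.19).

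The glutamate transporters of astrocytes differed. *Slc1a3* was at 420 and 336 CPM at P8, 224 and 232 at 5 weeks and 419 and 135 in the cord libraries (-0.64 ± 0.16, average -0.87 ± 0.25), and *Slc1a2* was not called in either form (0.31 ± 0.21, average 0.79 ± 0.24 with adjusted p = 0.0573). *Fam107a* and *Dao* were named after their values were seen. *Fam107a*, a stress-responsive gene of astrocytes, was at 7.62 and 8.52 CPM at P8, 185 and 145 at 5 weeks, and 3.17 and 146 in the cord libraries (4.44 ± 0.17, average 5.09 ± 0.18). *Etnppl*, an astrocyte phospholyase with the largest rise among protein-coding genes of at least 10 CPM on average, was at 0.312 and 0.0844 CPM at P8, 85.2 and 70.2 at 5 weeks, and 0.471 and 48.9 in the cord libraries (8.41 ± 0.43). *Dao*, the D-amino acid oxidase of hindbrain astrocytes, was at 0.956 and 1.27 CPM, then 7.89 and 26.2 (4.05 ± 0.67). In the deep 9-week WT medulla libraries *Etnppl* stood at 80.3 to 80.9 CPM and *Fam107a* at 139 to 147.

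Of 14 genes of homeostatic microglia, 1 was higher and 3 lower under the medulla label, and 3 were higher and 1 lower in the average. This was near the 25% called of all genes, and leaving out any 1 of the 4 libraries gave none higher and 1 or 2 lower, and 1 higher and none or 1 lower in the average. Without the shallow 5-week cord library the average called 6 higher, and without the deep one 1. *P2ry12*, the purinergic receptor of resting microglia, was at 27.6 and 26.3 CPM at P8 and 16 and 16.5 at 5 weeks (-0.64 ± 0.1, average -0.12 ± 0.15). *Fabp5* and *Igf1*, which microglia of neonatal white matter and other cells express, fell by 1.87 ± 0.13 and 1.47 ± 0.34 and were also lower in the average. *Gpnmb* rose by 2.86 ± 0.41, from 0.362 and 0.478 CPM to 2.07 and 3.62. None of 17 complement, antigen presentation and interferon genes was called under the medulla label, among them *H2-D1* at 51.1 and 70.1 CPM at P8 and 55.8 and 72.2 at 5 weeks, and 4 were higher in the average. None had an unadjusted p under 0.05 in edgeR or a call in DESeq2 under the medulla label. The averaged count was none without the deep 5-week cord library and 8 without P8 WT_2, and under the medulla label 2 were higher without P8 WT_2 and 1 was higher without 5-week WT_1 and 1 lower without P8 WT_1.

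Genes of vessel growth and of the blood-brain barrier moved in both directions, with 5 of 10 genes of angiogenic tip cells lower and 3 higher under the medulla label and 3 and 3 in the average. The first count was 2 lower and 1 higher without 5-week WT_1, 2 and none without 5-week WT_2, and 3 and none without P8 WT_2. The second was 1 and 1 without the deep 5-week cord library and 5 lower and 2 higher without P8 WT_1. *Adm*, the adrenomedullin gene, and *Unc5b*, a netrin receptor, rose by 1.06 ± 0.25 and 0.82 ± 0.14. *Kdr*, the receptor for vascular growth factor, was at 42.7 and 63.8 CPM at P8, 13.4 and 12.3 at 5 weeks, and 73.9 and 10 in the cord libraries (-1.96 ± 0.21). *Aplnr*, the apelin receptor, went from 65.1 and 90.7 CPM to 1.07 and 2.03 (-5.56 ± 0.37), and from 37.2 to 17.4 in the cord libraries. *Nid2*, a basement membrane protein, fell by 2.7 ± 0.34. *Slco1a4*, an organic anion transporter of the barrier, was at 15.2 and 15.2 CPM, then 60.5 and 71.6, and at 14.3 and 64.8 in the cord libraries (2.21 ± 0.12), and *Slc2a1*, the glucose transporter of the barrier, at 67 and 61.2 CPM, then 139 and 167 (1.34 ± 0.14). *Cldn5*, a tight junction gene of the barrier, fell by 0.81 ± 0.11 (average -0.98). Under the medulla label 41.2% of the endothelial genes were called, against 25% of all genes, and their share of lower genes was near the 13% of all genes. Over the 17 endothelial genes 5 were higher and 2 lower under the medulla label and 6 and 2 in the average, against 3 and 1 without 5-week WT_1, 4 and 1 without 5-week WT_2, 5 and 4 without P8 WT_1, and 1 and 2 in the average without the deep 5-week cord library.

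Red blood cell genes were lower at 5 weeks for 8 of 9 (median -3.91), and *Slc4a1*, the anion exchanger of red cells, was at 13.7 and 32.3 CPM at P8 and 0.314 and 0.445 at 5 weeks. All 9 were lower in the average, and none without the deep 5-week cord library. Under the medulla label 2 were called without 5-week WT_1 and 5 without 5-week WT_2. Summed, they stood at 492.2 and 1014 CPM at P8 and 96.11 and 121.5 at 5 weeks. Of the 18 fibroblast matrix genes 2 were lower (11.1%), a share near the 13% of all genes, and this count depended strongly on single libraries. The part of blood and fibroblasts in other changes was not tested.

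Some growth genes of the fetus and newborn were lower. *Igf2bp3*, a fetal mRNA-binding protein, was at 3.74 and 5.54 CPM at P8, 0.0524 and 0.0835 at 5 weeks, and 3.46 and 0.203 in the cord libraries (-5.96 ± 0.43). *Hmga2*, a chromatin protein of fetal stem cells and a target of let-7, was at 2.97 and 5.48 CPM and at 0.131 and 0.0557 (-5.36 ± 0.57). Of 11 genes of fetal RNA-binding proteins and let-7 targets, 5 were lower under the medulla label and 6 in the average, and none was higher. The first count was 3 without either 5-week library or without P8 WT_1, and the second 2 without the deep 5-week cord library. Of 18 imprinted genes 4 were lower and 2 higher under the medulla label (33.3% called, against 25% of all genes), and 4 lower and 1 higher in the average. Without either 5-week library 2 were lower, without P8 WT_1 6, and in the average without the deep 5-week cord library 1. The imprinted RNA *H19* was at 53.5 and 1290 CPM at P8, 0.891 and 0.835 at 5 weeks, and 33.2 and 1.35 in the cord libraries, so that its size rested on P8 WT_2 while its direction was the same in every library (-9.49 ± 1.94, average -6.95 ± 1.25), and it was not called under the medulla label without either 5-week library. *Cdkn1c*, an imprinted inhibitor of the cell cycle, fell by 2.49 ± 0.41 with an average of -0.96 ± 0.32 (adjusted p = 0.072). *Dlk1* and *Peg3* were called higher under the medulla label. Their averages were 1.22 ± 0.18 (adjusted p = 0.00511) and 0.37 ± 0.19 (adjusted p = 0.209), so that *Peg3* was not called there.

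Of 24 regulators of DNA methylation and chromatin, 12 were lower and 3 higher under the medulla label, and 9 lower and 1 higher in the average. The averaged count was 5 lower without the deep 5-week cord library and 14 without the shallow one, and 1 was higher under the medulla label without 5-week WT_1 or without either P8 library. *Uhrf1*, which guides maintenance methylation at replication, went from 19.3 and 22.2 CPM to 1.21 and 0.835 (-4.25 ± 0.24), and *Hmgb2*, a chromatin protein of dividing cells, from 26.2 and 37.6 to 1.99 and 2.9 (-3.61 ± 0.28). *Dnmt3a*, the enzyme of new methylation in young neurons, was at 498 and 450 CPM at P8, 170 and 153 at 5 weeks, and 645 and 151 in the cord libraries (-1.47 ± 0.13, average -1.66 ± 0.15). *Ezh1*, the histone methyltransferase of cells that no longer divide, was at 29.4 and 30.6 CPM, then 67.2 and 66.7, and at 37.3 and 67.5 in the cord libraries (1.25 ± 0.09, average 1.14 ± 0.12). *Ptbp1*, the splicing repressor of non-neuronal cells and progenitors, fell by 0.88 ± 0.11, and *Mbnl2*, a splicing factor of the adult brain, rose by 0.91 ± 0.11, both also called in the average.

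Clock genes and genes induced by glucocorticoids rose without exception among those called. Of 17 clock genes, 12 were higher under the medulla label (median 1.03) and 11 in the average (median 0.96), or 4 without the deep 5-week cord library. *Per1*, a repressor of the clock that glucocorticoids also induce, was at 25.2 and 27.9 CPM at P8, 92.4 and 77.8 at 5 weeks, and 32.9 and 76.2 in the cord libraries (1.77 ± 0.12). *Nr1d1*, another repressor, was at 25.8 and 27.2 CPM, then 72.8 and 64.8 (1.47 ± 0.1). The time of day of dissection is not given in the sources used here, so that age and time of day cannot be told apart for these genes.

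Of 13 glucocorticoid-induced genes, 8 were higher in each form (medians 0.84 and 1.16). Under the medulla label 3 were called without 5-week WT_2, and the average called 1 without the deep 5-week cord library. *Sgk1*, a kinase that glucocorticoids induce, was at 57 and 63.4 CPM at P8, 287 and 396 at 5 weeks, and 40.8 and 446 in the cord libraries (2.59 ± 0.2, average 3.07 ± 0.19). *Zbtb16* was at 14.4 and 16.3 CPM and at 57.4 and 76.8 (2.22 ± 0.18). In the deep 9-week WT medulla libraries *Sgk1* stood at 121 to 124 CPM and *Zbtb16* at 29.3 to 46, below the 5-week libraries, a difference that was not tested. *Klf9*, a factor induced by thyroid hormone and by glucocorticoids, was at 47.5 and 46 CPM, then 143 and 147, and at 43.7 and 147 in the cord libraries (1.72 ± 0.09). *Hr*, a thyroid hormone target, rose by 1.16 ± 0.16, while the hormone-binding *Crym* fell by 3.06 ± 0.47. These 3 genes were called in the same direction in the average.

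Genes of ketone body and glucose use were both among those called. *Bdh1*, the ketone body dehydrogenase, was at 217 and 184 CPM at P8, 50.9 and 62.1 at 5 weeks, and 191 and 59.7 in the cord libraries (-1.74 ± 0.17), and *Slc16a1*, which carries lactate and ketone bodies, fell by 1.01 ± 0.13. *Pkm*, pyruvate kinase, was at 636 and 625 CPM, then 1210 and 1410 (1.14 ± 0.16), and *Ldha*, the lactate dehydrogenase subunit, fell by 1.09 ± 0.22. Each was called in the same direction in the average. Over 30 energy genes, 8 were higher and 6 lower under the medulla label (46.7% called, against 25% of all genes) and 9 and 7 in the average. The first count was 6 and 3 without 5-week WT_1, 3 and 3 without 5-week WT_2, 4 and 9 without P8 WT_1 and 2 and 3 without P8 WT_2, and the second was 5 and 3 without the deep 5-week cord library and 4 and 5 without 5-week WT_2.

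Sodium pump subunits of the beta type, *Atp1b1* (0.95 ± 0.19) and *Atp1b3* (1.07 ± 0.14), rose, and both were also higher in the average. Their regulators *Fxyd7* and *Fxyd6* fell from 96.5 and 80.8 CPM to 25.9 and 23.8 and from 178 and 195 to 87.7 and 67. The amino acid transporter *Slc38a5* fell by 2.08 ± 0.23 (average -2.19 ± 0.24). Among heat shock genes *Hsph1* was at 132 and 120 CPM at P8, 311 and 299 at 5 weeks, and 147 and 310 in the cord libraries (1.36 ± 0.12), and the cold-induced *Rbm3* fell by 0.98 ± 0.11.

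*Atxn7*, the gene of SCA7 and a subunit of the SAGA coactivator, was at 35.6 and 39.1 CPM at P8, 38 and 32.6 at 5 weeks, and 32.8 and 34.3 in the cord libraries. The groups overlapped, and the change was 0.01 ± 0.11 under the medulla label and 0.11 ± 0.14 averaged. Of 23 genes of the complex, 2 were called under the medulla label, *Atxn7l3* (0.62 ± 0.14) and *Atxn7l1* (0.52 ± 0.11), against 25% of all genes and none of 23 without P8 WT_2, and neither was called in the average, where *Kat2b* was the only one called (1.2 on the log2 scale).

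The remaining genes of the largest changes included genes that changed alike under both labels. *2900052N01Rik*, a long noncoding RNA of unstated role, was at 0.433 and 0.478 CPM at P8, 37.9 and 22 at 5 weeks, and 0.916 and 12.5 in the cord libraries (6.13 ± 0.36, average 5 ± 0.37). *Gm39080*, also annotated as a long noncoding RNA (chr7:119730804-119739490, GRCm38.p6), had 3 counts in both P8 libraries and 1737 at 5 weeks, a ratio of library-scaled counts of 1050 with an exact 95% interval of 360 to 5120 that covers counting error only. *Sfrp5*, a secreted inhibitor of Wnt signalling, was at 0.0705 and 1.07 CPM and at 23.3 and 16 (5.43 ± 1.17, average 5.28 ± 0.94), and it was not called without either 5-week library. *Casr*, the calcium-sensing receptor, went from 50.4 and 43.7 CPM to 3.3 and 1.11 (-4.32 ± 0.52, average -5.12 ± 0.45), and *Crabp1*, a carrier of retinoic acid, from 40.9 and 39.7 to 0.21 and 1.25 (-5.71 ± 0.71, average -3.97 ± 0.5). *Casr* and *Crabp1* were named after their values were seen.

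The 12 largest falls under the medulla label held 8 HOX genes and the RNA *Mira* of the HoxA cluster. *Hoxb9*, with 0 counts in the 5-week libraries against 6555 at P8, was at least 1200-fold lower at 5 weeks when set against a floor of 3 counts over the group. *Hoxc8* had 2 counts at 5 weeks and 13535 at P8, a ratio of 3720 (exact interval 1030 to 30700). In the cord libraries *Hoxc8* ran from 0.0262 CPM at P8 to 17.1 at 5 weeks. The test of the difference between the labels called 44 genes (0.210%), 26 with the higher change under the medulla label (0.124%) and 18 with the lower (0.0861%), and 3108 had an unadjusted p under 0.05. With the mouse as a block it called 624, and only 6 without the shallow 5-week cord library. Posterior HOX genes were among the 18 and monoamine genes among the 26, with *Slc6a4* at 8.01 under the medulla label and -9.42 under the cord label.

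**Figure D5:**
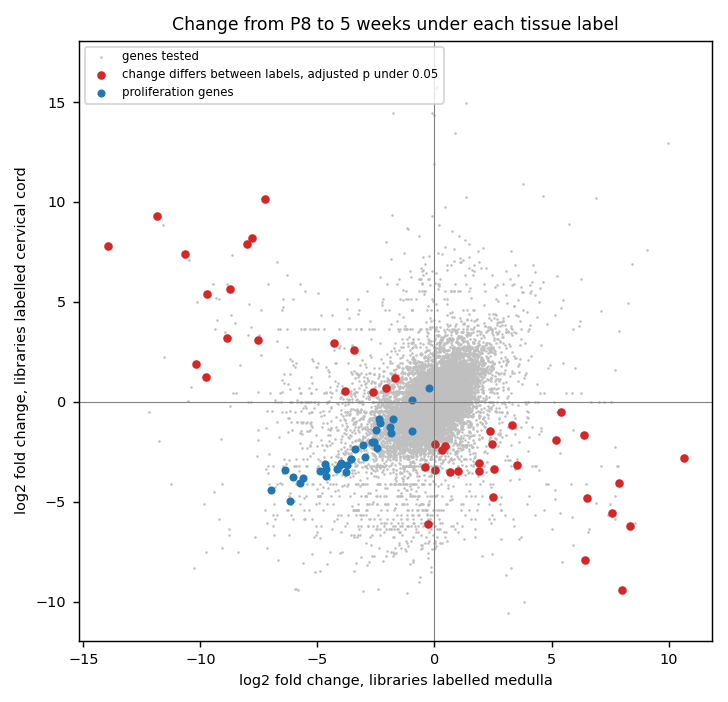
Log2 fold change of 5 weeks over P8 in the libraries labelled medulla (x axis) and labelled cervical cord (y axis), grey for all tested genes, blue for proliferation genes and red for the 44 genes whose change differed between the labels. The blue points lie in the lower left, where both changes are negative, apart from *E2f1* and *Pcna*, and HOX and monoamine genes lie at the upper left and lower right corners.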

How the data were processed

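RNA was sequenced from flash-frozen tissue. The authors deposited raw read counts per gene, 1 file per library, of uniquely mapped reads. The labels name the build mm10, and the aligner and counter are not given in the sources used here. Tables held 35976 genes. Members and gene lists were chosen with earlier results of these data known.

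Counts were tested with edgeR 4.0.16 (R 4.3.3, TMM, quasi-likelihood, Benjamini-Hochberg) after removal of genes that reached 10 counts in no library of the fit. SE is the fold change over the square root of F. The script was tested on simulated data with 200 changed genes and no differences in position or cell types. There, 7 of 155 calls were wrong for edgeR with 2 against 2 libraries and 13 of 171 for the average. For the difference between labels, 15 of 111 calls were wrong where the change was in 1 tissue. DESeq2 1.42.0 and limma-voom 3.58.1 were alternatives. Same-numbered replicates across ages came from different mice (r of deviations 0.0944) and were not paired.

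Named were the 12 largest rises and falls with a mean of at least 10 CPM and no overlap, up to 4 called genes of each list (the 2 largest rises and falls, or the most abundant where none was called), subunits of families, *Atxn7*, and position, sex and neighbouring tissue genes as a check. *Mbp*, *Mobp*, *Opalin*, *Dcx*, *Gap43*, *Pdgfra*, *Dnmt3a*, *Nr1d1*, *Kat2b*, *E2f1*, *Pcna*, *Fam107a*, *Dao*, *Casr* and *Crabp1* were named after their values were seen. Some genes of the lists are not reported here. Promoters are from RefSeq (GRCm38.p6). Under the medulla label the p-values measure the spread between libraries of different mice, which includes the differences in position and cell types given above. With 2 libraries a group it is estimated with few degrees of freedom. In the average they measure the spread between 7 libraries of 4 mice treated as independent, and the single P8 cord library adds nothing to it.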

Additional observations from a re-analysis of the deposited data

Results flagged for a closer look

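The change with age differed between the medulla and cord labels, by the test of the difference in edgeR, for 20 of the genes named here. The values are the log2 fold change under the medulla label minus that under the cord label. The difference was negative for the HOX genes *Hoxb9* (-21.73), *Hoxc8* (-21.13), *Hoxd8* (-15.91), *Hoxa7* (-15.13), *Hoxb8* (-12.05), *Hoxc6* (-12.05) and *Hoxb7* (-10.98) and for *Mira* (-14.37). It was positive for the monoamine genes *Slc6a4* (17.45), *Tph2* (14.59), *Fev* (13.42), *Slc6a2* (13.18), *Dbh* (11.91), *Slc18a2* (11.33), *Slc6a3* (8.05) and *Th* (7.11). It was also positive for *Otx2* (14.34), *Gabrd* (5.89), *Barhl1* (5.35) and *Rgs8* (3.85). Fitted values of genes near 0 counts depend on the prior count and are no bound. These genes mark position along the neuraxis for the most part, and in the P8 libraries they went against the tissue labels, so age and position cannot be told apart for them.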

How the results depend on the processing

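Under the medulla label, no called gene named above reversed its direction under any alternative, while some that were not called did, and some genes changed sign between that label and the average, among them *Slc6a4* (8.01 and -0.69), *Otx2* (6.41 and -0.73) and *Barhl1* (1.86 and -0.77). Between the libraries labelled medulla, 5200 genes were called, and a test against a fold threshold of 1 on the log2 scale called 520 (175 higher and 345 lower). Leaving out 1 library each gave 1974 to 2894 calls (859 to 1392 higher and 1115 to 1701 lower), the fewest without P8 WT_2. Scaling by library totals moved the share of higher genes among those called from 47.8% to 39.2% and the median of all genes from -0.0465 to -0.134, while the share was 50.4% with the size factors of DESeq2, 51.1% with DESeq2 and 50.1% with all deep WT medulla libraries in 1 fit, where higher genes outnumbered lower ones. With the replicate number as a block 4335 were called, and of the 208 named genes 191 kept their side of the threshold, 16 lost their call and 1 gained one. The average over both labels (4817) fell to 1544 with DESeq2, to 862 with at least 10 counts in every library (2050 genes tested), and ranged from 1018 to 5835 without 1 library each. Genes differing between the labels (44) numbered 144 with DESeq2, 84 with at least 10 counts in every library, 6 with deep libraries only, 624 with the mouse as a block, and 6 to 212 without 1 library each. The averaged count was 5847 with limma-voom and 6706 with the mouse as a random block. The cause of these changes was not tested. The average and its alternatives were added after seeing the data. Of the genes called under the medulla label and named above, those not called without at least 1 of the 4 libraries were *Acan*, *Adm*, *Atp1b1*, *Atxn7l1*, *Atxn7l3*, *Calb1*, *Cldn5*, *Cnp*, *Dao*, *Dlk1*, *Gabrb2*, *Gfap*, *Glra2*, *Glrb*, *Gria3*, *Grin3a*, *H19*, *Hapln4*, *Igf1*, *Kcnc2*, *Klk6*, *Ldha*, *Nes*, *Nid2*, *P2ry12*, *Pdyn*, *Peg3*, *Pkm*, *Scn1a*, *Scn8a*, *Sfrp5*, *Slc17a7*, *Slc1a3*, *Sox1*, *Stmn1*, *Stx1a*, *Syt1*, *Unc5b*, *Vim* and *Xist*.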
